A study of Mus musculus with 6 samples.

Results

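Translation initiation and elongation factors are the proteins that load ribosomes onto messenger RNA, find the start codon and move the ribosome along the coding sequence. The 36 genes described here were given as a list of symbols, and every probe of the array carrying one of those symbols was taken. The list matched 59 probes, and 57 of them were kept, because the scanner called them well above background on 3 or more arrays. The whole table kept 29318 probes of 20996 gene names. Eif2s3x and Eif4e each lost 1 of 3 probes. Each of the 36 genes kept at least 1 probe, and all 57 were well above background on all 6 arrays.

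The RNA came from mouse brain synaptosomes, which are nerve terminals pinched off from homogenised brain together with attached postsynaptic membrane. The groups were knock-in (KI, 3 samples) and wild type (WT, 3 samples), with 1 one-colour array for each sample. The series title concerns FMR1, the gene of the RNA-binding protein FMRP, and FXTAS, a late-onset movement disorder of carriers of a lengthened FMR1 repeat. The labels used here name neither the allele nor the strain, age or number of animals, and the genotype field of the KI samples reads knock-out. Nothing says that replicates were separate animals, so p-values reflect only how these samples scatter, which can be technical.

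Before the results, the arrays themselves differed. Slide 1 held the 3 KI arrays and WT replicate 3, and slide 2 held WT replicates 1 and 2. The 75th percentile of the processed signal was 883 to 910 on the KI arrays, against 578, 580 and 823 on WT replicates 1 to 3. WT replicate 2 stood apart in addition, as described below. Fmr1, read with its brightest probe, was at 2.08, 2.24 and 2.27 in KI replicates 1 to 3, against 1.42, 1.33 and 1.37 in WT replicates 1 to 3, and all 3 of its probes separated the groups in that direction. Their log2 differences were 0.82, 0.39 and 0.45, and none passed an adjusted p of 0.05 by limma (0.326, 0.458 and 0.447). All 8 neuronal and synaptic markers were well measured (3.07 to 7.27 on the same scale), and the groups overlapped for each. Their list mean relative to the 6 arrays was -0.14, 0.05 and 0.11 in KI replicates 1 to 3, against -0.13, 0.04 and 0.07 in WT replicates 1 to 3. Markers of other cells were measured too, and the groups did not overlap for 3 of 5 microglial, 2 of 5 astrocyte, 1 of 4 endothelial and 0 of 5 oligodendrocyte markers, beside 20.3% of all genes. The microglial list mean relative to the 6 arrays was 0.02, 0.06 and 0.02 in KI replicates 1 to 3, against 0.00, -0.05 and -0.05 in WT replicates 1 to 3. Other lists varied more, and their means are given with replicates 1 to 3 of each group in turn. Oligodendrocyte markers read 0.19, 0.41 and -0.03 in KI, against 0.17, -0.55 and -0.19 in WT. Astrocyte markers read 0.13, 0.14 and -0.03 against 0.08, -0.19 and -0.12, and endothelial markers 0.20, -0.12 and -0.46 against 0.04, 0.24 and 0.11. Markers of striatum and choroid plexus varied between arrays of the same group: as a list mean relative to the 6 arrays, the 8 striatal markers read 2.13, 0.61 and -1.02 in KI replicates 1 to 3, against 1.50, -1.60 and -1.62 in WT replicates 1 to 3. The 5 choroid plexus markers read 0.44, 0.77 and -0.33 in KI, against 0.70, -0.71 and -0.87 in WT. The part of these markers in the results below was not tested. In such bulk RNA, fewer structures of one kind and less RNA in each cannot be told apart.

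Initiation starts when eIF2 carries the initiator tRNA to the small ribosomal subunit, together with eIF1, eIF1A, eIF5 and the many-subunit scaffold eIF3. The cap-binding complex of eIF4E, eIF4G and the helicase eIF4A recruits this assembly to the message, and eIF5B joins the large subunit. Elongation then needs eEF1A, which delivers aminoacyl-tRNA, its exchange factors, and the translocase eEF2. At synapses, local protein synthesis is regulated at these steps, and FMRP is known as a repressor of translation.

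None of the translation factors differed between KI and WT beyond the threshold. By limma, 0 of 57 member probes passed an adjusted p of 0.05, and the smallest adjusted p among them was 0.423. Over all probes, 2 of 29318 passed, which is 0.00682%. At an unadjusted p under 0.05 there were 5 member probes, or 8.77%, where all kept probes gave 10.4%. Of these, 2 were higher in KI (4.29% of all kept probes were) and 3 were lower (6.13% of all). The groups did not overlap for 10 member probes, or 17.5%, beside 19.9% of all kept probes, with 3 higher in KI (7.93% of all) and 7 lower (12% of all). The values below are in log2 units relative to the 75th percentile of each array and always as KI minus WT.

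By the brightest probe of each gene, the differences lay between -0.38 and 0.65. In size 26 of 36 were smaller than 0.2, beside 12510 of all 20996 genes. The median was -0.07, beside -0.05 over all 20996 gene names measured. Relative to that median of all genes, 17 members lay above and 19 below. The 3 KI arrays lay wholly above the 3 WT arrays in 2 members (Eif3a and Eif4g2), beside 7.86% of all genes, and wholly below in 6 (Eif2s2, Eif3h, Eif4a2, Eif4h, Eif5 and Eef1g), beside 12.4%. Together these make 22.2% of members, against 20.3% of all genes, and 4 members by brightest probe had an unadjusted p under 0.05 (11.1%, beside 10% of all genes). The 95% interval of the difference stayed within 0.5 of zero on the log2 scale for 24 of 36 members, beside 9313 of 20996 genes. It stayed within 1 for 35 of 36 members, the exception being Eif4g2, beside 18108 of 20996 genes. With slide as a block, which sets the KI arrays against WT replicate 3 alone, the median was -0.05, beside -0.03 over all genes. There 27 of 36 members kept their sign, beside 16040 of 20996 genes.

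**Figure D1:**
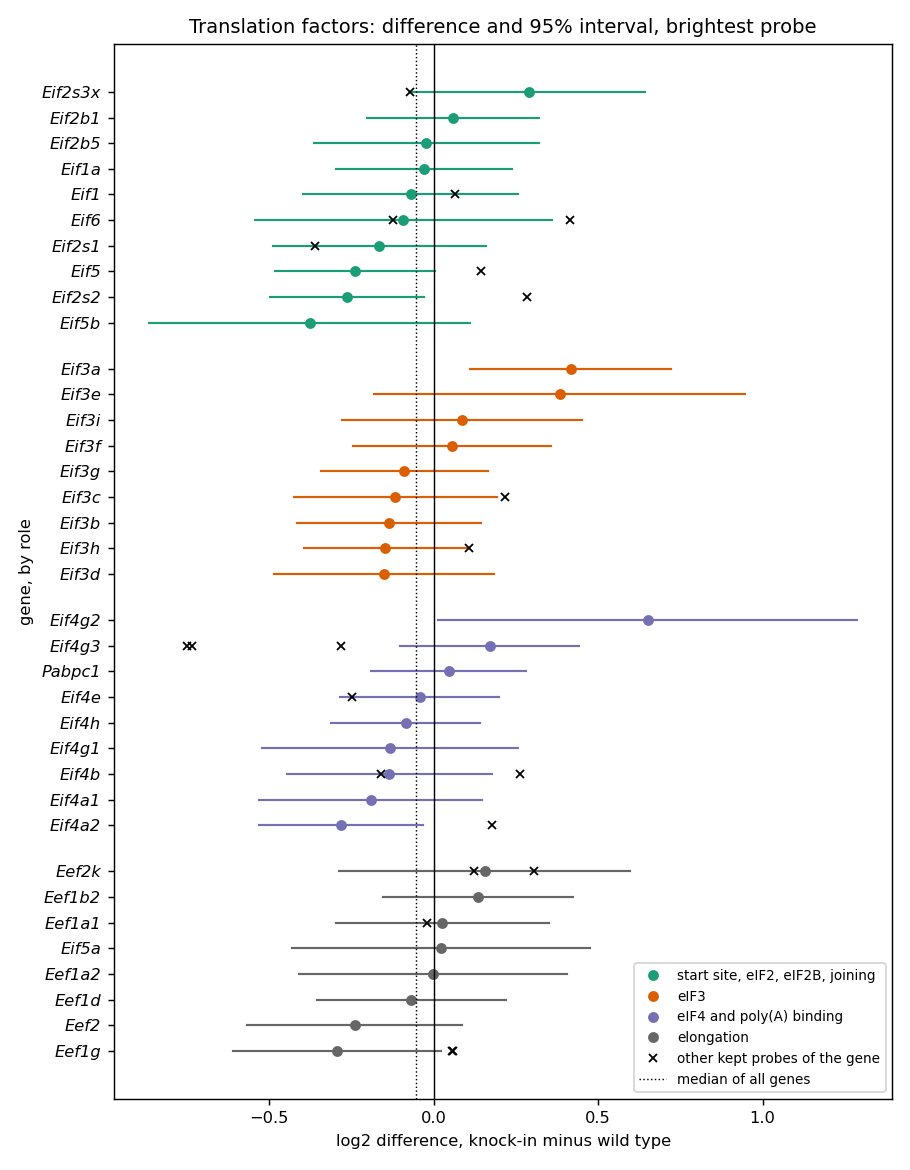
Log2 difference, knock-in minus wild type, for the brightest probe of each of the 36 translation factors (points) with its 95% interval from limma (lines), grouped by role, and for the other kept probes of the same gene (crosses). Most points lie within 0.2 of zero, and the widest spread among probes of 1 gene is that of Eif4g3.

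Among the factors of start-site selection, eIF2, eIF2B and subunit joining, 10 genes had a median difference of -0.08, with 2 above zero and 8 below. Eif2s2, which encodes the beta subunit of eIF2, read 3.09, 3.08 and 3.15 in KI replicates 1 to 3, against 3.37, 3.43 and 3.31 in WT replicates 1 to 3. The KI arrays lay below all WT arrays by this probe, at base 1406 of the transcript (chr2:154698193-154698252 of build mm9), with a difference of -0.26 (SE 0.10, limma's adjusted p = 0.460, exact permutation p = 0.1, the smallest that 3 against 3 arrays allow). It was -0.20 with slide as a block. The other probe of Eif2s2, at base 2446, gave 0.28 (SE 0.22) with overlapping groups, so that the mean of both probes was 0.01.

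Eif5 encodes the protein that triggers GTP hydrolysis by eIF2 at the start codon. Its brightest probe, at base 3726 (chr12:112784725-112784784), read 4.13, 4.27 and 4.30 in KI replicates 1 to 3, against 4.49, 4.51 and 4.43 in WT replicates 1 to 3, without overlap. The difference was -0.24 (SE 0.10, limma's adjusted p = 0.481) and -0.19 with slide as a block. The upstream probe, at base 729, read 4.25, 4.21 and 4.22 in KI replicates and 3.99, 3.94 and 4.32 in WT replicates, a difference of 0.14 in the other direction.

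Eif2s3x, the X-linked gene of the eIF2 gamma subunit, read 0.54, 0.66 and 0.34 in KI replicates 1 to 3, against 0.44, 0.08 and 0.15 in WT replicates 1 to 3. The groups overlapped, at a difference of 0.29 (SE 0.15, limma's adjusted p = 0.513), and the other kept probe gave -0.07. Eif5b, whose product joins the ribosomal subunits, had the most negative member difference by brightest probe, -0.38 (SE 0.20, limma's adjusted p = 0.524). Its single probe was dim, at -4.25, -3.59 and -3.85 in KI replicates 1 to 3, against -3.72, -3.55 and -3.29 in WT replicates 1 to 3, and the groups overlapped. The difference was -0.20 without KI replicate 1, -0.53 without KI replicate 2 and -0.61 with slide as a block.

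By brightest probe, the other 6 genes of this role lay closer to zero. Eif1 and Eif1a, which keep the scanning ribosome open, differed by -0.07 and -0.03. Eif2s1, the eIF2 alpha subunit whose phosphorylation dampens initiation, differed by -0.16 by its brightest probe and by -0.36 by its dimmer one, both with overlap. With slide as a block the brightest probe of Eif2s1 gave -0.03 and the dimmer one -0.64. The subunit genes of the exchange factor eIF2B gave 0.06 for Eif2b1 and -0.02 for Eif2b5. Eif6, whose product keeps the ribosomal subunits apart, gave -0.09, -0.12 and 0.42 by its 3 probes, the last with an SE of 0.51.

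The eIF3 genes had a median of -0.09 over 9 members, 4 of them above zero. Eif3a encodes the largest scaffold subunit of the complex and was measured by 1 probe at base 4670 (chr19:60837465-60837524). It read 2.32, 2.40 and 2.14 in KI replicates 1 to 3, against 1.98, 1.71 and 1.92 in WT replicates 1 to 3. All KI arrays lay above all WT arrays, at 2.29 ± 0.13 in KI and 1.87 ± 0.14 in WT (SD, n = 3 each), a 1.33-fold difference (log2 difference 0.42, SE 0.13, 95% interval 0.11 to 0.72). The adjusted p by limma was 0.447, and with slide as a block the difference was 0.37 with limma's adjusted p = 0.984.

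Eif3e, which encodes another eIF3 subunit, read 2.69, 2.82 and 2.56 in KI replicates 1 to 3, against 2.62, 1.78 and 2.52 in WT replicates 1 to 3. The difference of 0.38 (SE 0.23, limma's adjusted p = 0.544) came with overlap and WT replicate 2 was well below the other arrays. It was 0.12 without that array and 0.17 with slide as a block. Eif3i showed the same low value on that array, at 2.27 in WT replicate 2 beside 2.57 ± 0.26 over the 3 WT arrays (SD), and differed by 0.09 overall.

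The remaining eIF3 genes differed less by their brightest probes. Eif3h, with KI arrays wholly below WT arrays, differed by only -0.15 (SE 0.10), and its upstream probe gave 0.11. Eif3b, Eif3c, Eif3d and Eif3g lay between -0.15 and -0.09, and Eif3f was at 0.06. The other kept probe of Eif3c, at base 336, read 4.70, 4.61 and 4.62 in KI replicates 1 to 3, against 4.21, 4.54 and 4.53 in WT replicates 1 to 3. It had the KI arrays wholly above the WT arrays (log2 difference 0.22, SE 0.13, limma's adjusted p = 0.537), and gave 0.11 with slide as a block. Differences of both signs were thus measured within 1 complex, and none passed the test.

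The cap-binding and poly(A)-binding factors had a median of -0.09 over 9 genes, 3 of them above zero. By brightest probe they held the largest member difference, that of Eif4g2, whose product (also called DAP5) lacks the part that binds eIF4E and serves initiation that bypasses it. Its single probe, at base 3122 (chr7:118216077-118216136), read 3.03, 3.17 and 2.92 in KI replicates 1 to 3, against 2.75, 1.78 and 2.63 in WT replicates 1 to 3. The KI arrays lay above all WT arrays, but WT replicate 2 was far below the other 2 WT arrays. The fold was 1.57 (log2 difference 0.65, SE 0.26, 95% interval 0.01 to 1.29, limma's adjusted p = 0.473). The difference was 0.35 without WT replicate 2 and 0.41 with slide as a block.

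Eif4g1, the main cap-complex scaffold, read 4.48, 4.65 and 4.65 in KI replicates 1 to 3, against 4.47, 5.02 and 4.69 in WT replicates 1 to 3. Here WT replicate 2 was the highest array, and the difference of -0.13 (SE 0.16, limma's adjusted p = 0.733) became 0.01 without it. Eif4g3, the third scaffold gene, had 4 kept probes that did not point one way. The brightest, at base 5259 (chr4:137762115-137762174), read 3.87, 3.98 and 3.80 in KI replicates 1 to 3, against 3.64, 3.65 and 3.85 in WT replicates 1 to 3, a difference of 0.17 (SE 0.11). With slide as a block that difference was 0.04. The 3 dim probes gave -0.75, -0.28 and -0.74, and with slide as a block -0.02, -0.21 and -0.64. The first of them, at base 1890, read -2.10, -2.10 and -2.34 in KI replicates 1 to 3, against -1.44, -0.70 and -2.16 in WT replicates 1 to 3, so that WT replicate 3 lay among the KI arrays.

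One dim Eif4g3 probe had the smallest p of all member probes. It lies at base 2600 of a transcript named only by an Ensembl identifier (chr4:137672097-137672156) and read -4.48, -4.19 and -4.51 in KI replicates 1 to 3, against -3.46, -3.75 and -3.76 in WT replicates 1 to 3. The groups did not overlap, at 0.600 of WT (log2 difference -0.74, SE 0.14, limma's adjusted p = 0.423, exact permutation p = 0.1). The mean over all 4 probes of the gene was -0.40, so its sign depends on which probes are taken as the gene.

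Of the helicase genes, Eif4a2 also gave unequal readings by its 2 probes, while Eif4a1 had 1 probe. Eif4a2, the isoform typical of neurons, read 5.75, 5.68 and 5.68 in KI replicates 1 to 3, against 6.07, 6.01 and 5.88 in WT replicates 1 to 3 by its brightest probe (base 2907, chr16:23113939-23113998). The KI arrays lay below all WT arrays, at 0.823 of WT (log2 difference -0.28, SE 0.10, limma's adjusted p = 0.460), and the difference was -0.17 with slide as a block. The other Eif4a2 probe, at base 761 of another transcript, gave 0.18 with overlap. Eif4a1, the isoform prominent in dividing cells, read 5.23, 5.09 and 5.09 in KI replicates 1 to 3, against 5.46, 5.45 and 5.07 in WT replicates 1 to 3. Its difference of -0.19 (SE 0.14) turned to 0.07 with slide as a block, and WT replicate 3, the WT array on the slide of the KI arrays, read like the KI arrays.

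Eif4e, the gene of the cap-binding protein itself, was among the most even members. It read 2.70, 2.61 and 2.61 in KI replicates 1 to 3, against 2.70, 2.60 and 2.74 in WT replicates 1 to 3. The difference was -0.04 with a 95% interval of -0.28 to 0.20, or -0.11 with slide as a block, and the second kept probe gave -0.25 with overlap. Eif4h and Eif4b, whose products stimulate the helicase, differed by -0.09 and -0.14, and Eif4b had 2 other probes at 0.26 and -0.16. Pabpc1, the cytoplasmic poly(A)-binding protein gene, differed by 0.05 with a 95% interval of -0.19 to 0.28.

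Elongation factors had a median of 0.01 over 8 genes, with 4 above zero and 4 below, and 0 of 8 had an unadjusted p under 0.05 by brightest probe, beside 10% of all genes. Eef1a1, the widely expressed gene of eEF1A, read 6.94, 7.00 and 6.73 in KI replicates 1 to 3, against 6.97, 6.94 and 6.67 in WT replicates 1 to 3. The difference was 0.03 (95% interval -0.30 to 0.35), and the second probe gave -0.02. With slide as a block the brightest probe gave 0.22. Its many processed pseudogenes could share signal with these probes, which was not tested. Eef1a2, the paralog that takes over in mature neurons and muscle, read 4.37, 4.66 and 4.74 in KI replicates 1 to 3, against 4.61, 4.34 and 4.82 in WT replicates 1 to 3. Its groups overlapped throughout, at 4.59 ± 0.20 in KI and 4.59 ± 0.24 in WT (SD, n = 3 each), with a 95% interval of the difference from -0.41 to 0.40. With slide as a block the difference was -0.23.

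The subunit genes of the eEF1B exchange complex gave 0.14 for Eef1b2, -0.07 for Eef1d and -0.29 for Eef1g. Eef1g read 6.21, 6.26 and 6.17 in KI replicates 1 to 3, against 6.54, 6.69 and 6.29 in WT replicates 1 to 3 by its brightest probe, at base 1324 (chr19:9052620-9052679). The KI arrays lay below all WT arrays (SE 0.13, limma's adjusted p = 0.489), but WT replicate 3 was close to them, and the difference was -0.07 with slide as a block. Both upstream probes of Eef1g gave 0.06.

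Eef2, the translocase gene, read 5.77, 6.06 and 5.96 in KI replicates 1 to 3, against 6.01, 6.33 and 6.16 in WT replicates 1 to 3. Only KI replicate 2 lay above the lowest WT array, and the difference was -0.24 (SE 0.14, 95% interval -0.57 to 0.09, limma's adjusted p = 0.532). It was -0.23 with slide as a block and -0.16 without WT replicate 2. Eef2k encodes the calcium-dependent kinase that inhibits eEF2 and links synaptic activity to elongation. It read -2.495, -2.001 and -2.086 in KI replicates 1 to 3, against -2.584, -2.338 and -2.124 in WT replicates 1 to 3. The difference of 0.15 (SE 0.18) had the same sign in all 3 probes but turned to -0.07 with slide as a block. Eif5a, the factor that relieves stalling at proline-rich stretches, differed by 0.02.

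**Figure D2:**
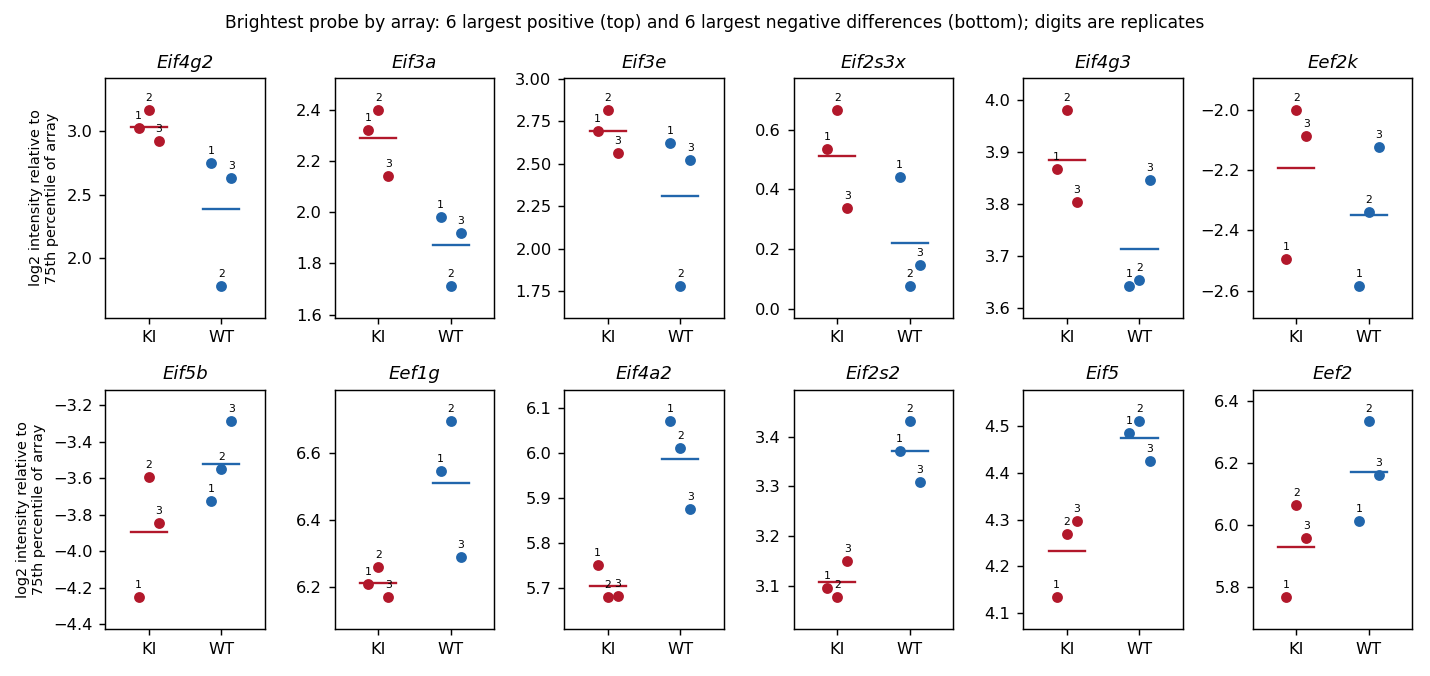
Log2 intensity of the brightest probe relative to the 75th percentile of the array, for the 6 translation factors with the largest positive differences (top row) and the 6 with the largest negative ones (bottom row), knock-in left and wild type right. Points are arrays with their replicate number, and lines are group means. WT replicate 2 is the lowest point of Eif4g2, Eif3a, Eif3e and Eif2s3x and the highest of Eef1g, Eif2s2, Eif5 and Eef2.

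Members whose messages carry a 5′ terminal oligopyrimidine (TOP) tract, which puts their translation under mTOR control, were set apart as a list of 11 from textbook knowledge (the eEF1 subunits, Eef2, Eif3e, Eif3f, Eif3h, Eif4b and Pabpc1). Their median difference was -0.0016, with 5 above zero and 6 below, beside -0.09 for the other 25 members. An unadjusted p under 0.05 was found for 0 of 11 TOP members and 4 of the other 25, beside 10% of all genes, and the difference between these counts was not tested.

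Probes of 1 gene often disagreed in sign. Of the 15 members with at least 2 kept probes, 12 had differences of both signs, or 80%, beside 44.1% of all 5930 gene names with at least 2 kept probes. This count takes differences of any size, and those near zero can differ in sign by scatter alone, as for Eef1a1 (0.03 and -0.02). Members and all genes were not matched for size of difference or number of probes. These comparisons of probes were chosen after the values were seen. Probes of opposite sign that each separated the groups were found in 0 of 15 members and in 97 of 5930 gene names. Where 2 probes lay on 1 transcript, the downstream minus the upstream probe could be compared within each array. This removes a shift shared by all probes of an array, but not one that varies with probe position or intensity. The groups did not overlap for 4 of 15 such pairs, beside 21% of 3735 pairs in all. The downstream probe read relatively lower in KI for Eif3c (-0.33), Eif3h (-0.26) and Eif5 (-0.38), and relatively higher for Eif2s3x (0.36), each with an exact permutation p of 0.1, the smallest possible. Relative to the mean of the arrays, WT replicate 2 was highest for Eif3c, Eif3h and Eif5, at 0.26, 0.34 and 0.37. There WT replicate 3, which shared the slide of the KI arrays, was at 0.02, 0.01 and -0.09, beside -0.12 in KI replicate 3 for Eif5. For Eif2s3x WT replicate 3 was the lowest array, at -0.33.

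WT replicate 2 was the array most often at the extreme for these genes, a count also chosen after the values were seen. It held the highest value of the 6 arrays for 17 of 36 members and the lowest for 10, in all 75% of members. Over all genes it was the extreme array in 58.9%. The other 5 arrays were the extreme in 16.7% to 33.3% of members. In the pairs of probes on 1 transcript, WT replicate 2 had the highest downstream-minus-upstream value in 7 of 15 member pairs and in 42.2% of all pairs. The labels give the same RNA integrity number of 10 for every sample. What sets this array apart was not tested.

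**Figure D3:**
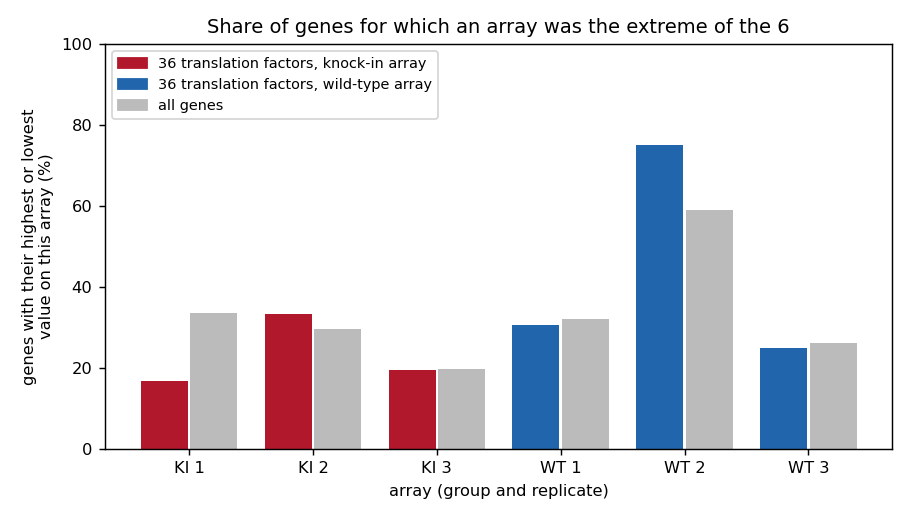
Percentage of genes whose highest or lowest value of the 6 arrays fell on a given array, for the 36 translation factors (coloured bars, knock-in arrays left, wild-type arrays right) and for all genes (grey bars). WT replicate 2 reaches 75% of the translation factors and 58.9% of all genes.

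A second list of 37 measured genes held the remaining subunits, paralogs, kinases, inhibitors and release factors of translation. By limma 0 of their 54 kept probes passed an adjusted p of 0.05, and 3 had an unadjusted p under 0.05, or 5.56%, beside 10.4% of all kept probes. The median difference of the 37 genes was -0.04. By brightest probe the KI arrays lay wholly above the WT arrays in 8 genes and wholly below in 5, together 35.1% beside 20.3% of all genes. The list was chosen with earlier results of these data known. Of the genes above, Denr, Eef1e1, Abce1 and Eif2ak2 were lowest in WT replicate 2. Their differences of 0.42, 0.44, 0.30 and 0.20 were 0.10, 0.23, 0.12 and 0.06 with slide as a block. Of the genes below, Eif3l, Eif2b2 and Eif3m also moved closer to zero there, while Mcts1 and Eif2s3y did not.

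Mcts1, which acts with Denr in re-initiation and recycling, read 2.03, 1.89 and 2.03 in KI replicates 1 to 3, against 2.86, 3.07 and 2.98 in WT replicates 1 to 3. This was 0.506 of WT, and the log2 difference of -0.98 (SE 0.11, limma's adjusted p = 0.202) was -0.99 with slide as a block. Eif4e3, a relative of the cap-binding protein, read -1.42, -1.30 and -1.41 in KI replicates 1 to 3, against -2.04, -2.02 and -1.85 in WT replicates 1 to 3, a 1.51-fold difference (log2 difference 0.59, SE 0.11, limma's adjusted p = 0.423). The difference was 0.47 with slide as a block.

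Eif4ebp2, the main brain inhibitor of eIF4E, read 2.78, 2.90 and 2.97 in KI replicates 1 to 3, against 2.36, 2.20 and 2.55 in WT replicates 1 to 3 (log2 difference 0.51, SE 0.13, limma's adjusted p = 0.438), and 0.33 with slide as a block. Eif4a3, the helicase relative that sits in the exon junction complex, differed by 0.35 (SE 0.15), and Eif2a, an alternative carrier of initiator tRNA, by 0.63 (SE 0.28). Both separated the groups, and with slide as a block they gave 0.16 and 0.24. Eif2a was lowest in WT replicate 2, at -0.46 against 0.42 and 0.56 in WT replicates 1 and 3.

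Eif2s3y, the Y-linked partner of Eif2s3x, was well above background on all 6 arrays. It read 0.08, 0.33 and 0.33 in KI replicates 1 to 3, against 0.48, 0.49 and 0.56 in WT replicates 1 to 3. The KI arrays lay below all WT arrays by a small amount (log2 difference -0.26, SE 0.11, limma's adjusted p = 0.483), and the difference was -0.31 with slide as a block.

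**Figure D4:**
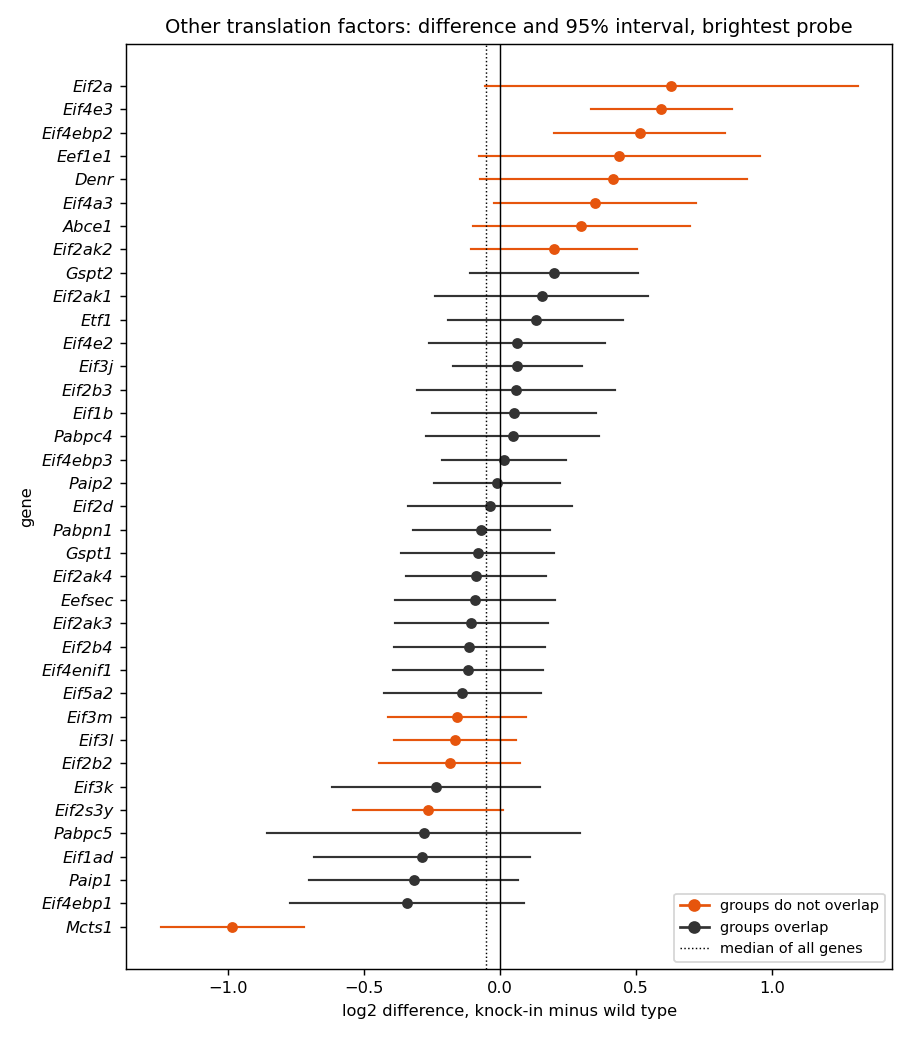
Log2 difference, knock-in minus wild type, of the brightest probe of 37 further translation genes (points) with its 95% interval from limma (lines). Orange marks genes whose knock-in and wild-type arrays do not overlap; Mcts1 is the farthest from zero.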

How the data were processed

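Total RNA of 6 synaptosome samples was labelled with Cy3 and hybridised to 1-colour Agilent arrays. Per the file headers, the scans went through Feature Extraction 10.7.3.1 by Agilent, and the authors deposited a processed intensity, background-subtracted and detrended within the array, with raw intensity and flags per spot. The authors also deposited a table of log2 values, whose normalization no source used here gives. Log2 processed intensity minus the 75th percentile of each array was averaged over spots of 1 probe, without control spots or marked outliers. Probes well above background on at least 3 arrays were fitted with limma 3.58.1 in R 4.3.3 (two-sided, Benjamini-Hochberg over 29318 probes). The precision is limited by the number of arrays. The fit was also run on simulated arrays drawn independently of each other. These held no slide effect and no deviating array, so that run cannot speak to either.

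A gene's brightest probe was the one with the highest mean of the 6 arrays, groups ignored. The label of KI replicate 1 gives an RNA amount of 0.0 µg, and those of the other samples 0.2 µg. Members were matched by the symbol in the files, and coordinates are those of the array annotation, build mm9. Members and lists were chosen with earlier results of these data known. Alternatives were normexp, quantile and median scaling, 2 other filters, 1 value per gene, slide and replicate blocks, a trended fit, the authors' values and each array left out. Named were the 6 members with the largest difference in each direction, the eEF1A, eIF4A and eIF4G paralogs, Eif4e, and up to 6 other factors of smallest p with Eif2s3y. Members whose probes all, or in opposite directions, separated the groups were also to be named, and there were 0. Same-numbered samples did not deviate together in every pair (correlations of 0.36, -0.04 and 0.22), while differently numbered ones gave -0.35 to 0.13. Whether equal numbers mark pairs was thus not settled, and the main fit did not pair samples.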

Additional observations from a re-analysis of the deposited data

How the results depend on the processing

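Under all 18 alternatives 0 member probes passed limma's adjusted p of 0.05, and 0 of 306 values of the 17 named members did. The median difference of the members moved by less than the spread between arrays (SD 0.11) under each of them. That spread is larger than the median of -0.07 itself, so even the loss of the whole difference would have stayed within it. On leaving out one array the median lay between -0.10 without WT replicate 1 and -0.03 without WT replicate 2. It was -0.00064 with quantile normalization, beside -0.02 for all genes, -0.0025 from the authors' values, beside -0.01, and -0.04 with normexp, beside -0.08, so that the members lay above the median of all genes there and below it as reported. Of the named members 9 kept their sign throughout, and 17 of the 306 values had the other sign, and the cause was not tested. Many of the 306 could not change sign. The 2 other filters, 1 brightest probe per gene, the replicate block and the trended fit left the differences of all named members as reported. The mean of all kept probes is also unchanged where a gene kept only 1 probe. Eef1a2, at -0.0016 as reported, gave 0.052 with normexp, 0.061 with quantile normalization, 0.00066 with the median of detected probes and 0.13 from the authors' values, and with single arrays left out it ran between -0.13 and 0.11. With slide as a block Eef1a2 gave -0.23 and Eef1a1 0.22. Eef2k gave -0.018 with normexp and -0.070 with slide as a block, Eif4a1 gave 0.065 with slide as a block, and Eif4e gave 0.029 with normexp and 0.028 from the authors' values. With the mean of all kept probes per gene, Eif2s2 gave 0.010 and Eif4g3 -0.40, because their other probes differ. Leaving out one array moved Eef1a1 between -0.069 (without WT replicate 3) and 0.10 and Eif4g1 between -0.26 and 0.013 (without WT replicate 2). Members wholly above WT numbered 4 with quantile normalization and 2 to 6 on leaving out one array (6 without KI replicate 3, 5 without WT replicate 1). Those wholly below numbered 4 with the mean of all kept probes per gene, 5 with quantile normalization and from the authors' values, and 7 with normexp. On leaving out one array those wholly below numbered 6 to 13 (12 without KI replicate 2, 13 without WT replicate 1), where fewer arrays make separation easier. Over the whole array, the count of probes past the threshold was 2, against 1 with normexp, 0 without a filter, 0 with the stricter filter that asks it of all 6 arrays, 5 with the mean of probes per gene, 10 with slide as a block, 0 from the authors' values and 0 to 5 on leaving out one array. With the replicate number as a block it was 0, which changed no call of a member. The number of arrays, the slides and WT replicate 2 each limit these results and were not ranked.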
